A study of Mus musculus with 22 samples.

Results

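The genes described here make cholesterol and fatty acids, or control that synthesis, and are known as targets or parts of the SREBP pathway. They were chosen by name as 32 of the 24537 genes in the table, and all 32 were found. By role, 18 are enzymes of the sterol pathway (Acat2, Hmgcs1, Mvk, Pmvk, Mvd, Idi1, Fdps, Fdft1, Sqle, Lss, Cyp51, Tm7sf2, Msmo1, Nsdhl, Hsd17b7, Ebp, Sc5d and Dhcr7). A further 6 regulate the pathway or carry sterol (Srebf1, Srebf2, Scap, Insig1, Insig2 and Stard4), and 8 act in fatty acid synthesis and desaturation (Acly, Acaca, Fasn, Elovl6, Scd1, Scd2, Fads1 and Fads2).

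SREBP proteins, the products of Srebf1 and Srebf2, are transcription factors that, bound to the escort protein Scap, are held in the endoplasmic reticulum by the anchors Insig1 and Insig2 while membrane sterol is high. When sterol falls, Scap carries them to the Golgi, where proteases release the part that enters the nucleus and raises transcription of lipid synthesis enzymes. The brain makes its own cholesterol because lipoproteins of the blood do not cross into it, and astrocytes are a main source, passing cholesterol to neurons on lipoprotein particles, while oligodendrocytes need much of it for myelin.

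The series measured RNA on tagged ribosomes in mouse visual cortex, in C57BL/6J mice that were all crosses of the Cre line 73.12 GFAP-cre with RPL22-HA. Cre driven by the Gfap promoter switches on an HA-tagged copy of Rpl22, a protein of the large ribosomal subunit, so the pulldown holds RNA of every cell that had expressed the driver, and the input is RNA of the whole region. Brains were perfused with 1% paraformaldehyde before dissection, and poly(A) RNA was sequenced. The series' design names its libraries as biological replicates, and the labels do not say whether animals were pooled. The pulldown groups were 10 days of darkness ending at postnatal day 120 (called 10-day-dark, replicates 1, 3 and 4), dark rearing from birth to day 45 (dark-reared, replicates 1, 4, 5 and 6), normal rearing to day 45 (normally reared, 3 libraries), and both sides of the cortex after 2 days of monocular deprivation, sampled at day 28 (contralateral and ipsilateral, 3 libraries each). Each group had 1 input library, which gives 16 pulldowns and 5 inputs. Darkness and age change together when the 10-day-dark group is set against the day 45 groups, so the effects of the 2 cannot be told apart. Values are FPKM, fragment counts scaled by transcript length and library depth. Levels are compared between genes only roughly, because long and short transcripts still differed by library, as described below. In bulk RNA, fewer cells of a type and less RNA per cell cannot be told apart.

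Depth, estimated from the steps between low values, was 21.0 to 51.1 M reads in 20 libraries, and contralateral replicate 2 gave no estimate. The astrocyte label held against its markers. The summed level of 14 astrocyte markers was 13111 to 18688 FPKM over the pulldowns, against 1674 to 2445 FPKM in the inputs, and that of 14 neuron markers was 255 to 1191 FPKM in the pulldowns, against 3582 to 4104 FPKM in the inputs. Oligodendrocyte markers were not depleted, with 1379.8 to 3587 FPKM in the pulldowns, against 1049.8 to 1811 FPKM in the inputs. Oligodendrocyte precursor markers were higher in every pulldown than in every input, at 190.8 to 329.6 FPKM in the pulldowns, against 99.2 to 160.4 FPKM in the inputs. No marker of these lists was at 0 in all pulldowns.

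Promoters of 25 of the 32 genes were matched in RefSeq on GRCm38.p6, each reaching from 250 bases before to 50 bases after a start. They were searched on both strands for the sterol regulatory element TCACNCCAC, the CCAAT box bound by NF-Y, a partner of SREBP, and the E-box CACGTG. The CCAAT box was present for 20 of the 25 genes, or 80.0%, against 41.1% of 27025 genes with a promoter in the same table. By role it was found for 14 of 15 sterol enzymes, 4 of 5 regulators and 2 of 5 fatty acid genes. The letters of the sterol regulatory element were found for 1 gene, Hmgcs1, against 1.44% of all genes, and the E-box for 5 genes, against 8.09% of all genes. The windows below belong to the sterol enzymes to which the results return, with Fasn for the fatty acid branch, and show how the boxes are spaced. They run 5′ to 3′ on the strand of the gene. Capitals mark CCAAT, its reverse complement ATTGG and, in Hmgcs1 alone, the sterol regulatory element. In Fasn a CCAAT and an ATTGG share 2 bases. The windows lie at chr13:119690101-119690380 (plus strand, Hmgcs1), chr5:114444081-114444274 (plus, Mvk), chr8:122443430-122443497 (minus, Mvd), chr8:64733614-64733753 (minus, Msmo1), chr7:143830114-143830184 (plus, the third of 3 annotated starts of Dhcr7) and chr11:120824587-120824652 (minus, Fasn).
Hmgcs1: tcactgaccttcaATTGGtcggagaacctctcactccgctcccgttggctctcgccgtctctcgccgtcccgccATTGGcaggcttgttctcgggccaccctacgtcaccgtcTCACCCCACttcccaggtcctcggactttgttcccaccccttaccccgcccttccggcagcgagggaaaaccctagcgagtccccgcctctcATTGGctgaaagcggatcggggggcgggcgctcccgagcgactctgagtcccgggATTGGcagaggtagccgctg
Mvk: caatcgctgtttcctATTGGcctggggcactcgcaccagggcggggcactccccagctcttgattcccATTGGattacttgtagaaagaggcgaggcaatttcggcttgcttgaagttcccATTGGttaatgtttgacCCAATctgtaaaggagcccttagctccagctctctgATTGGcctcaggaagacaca
Mvd: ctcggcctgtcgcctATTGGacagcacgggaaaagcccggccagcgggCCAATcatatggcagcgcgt
Msmo1: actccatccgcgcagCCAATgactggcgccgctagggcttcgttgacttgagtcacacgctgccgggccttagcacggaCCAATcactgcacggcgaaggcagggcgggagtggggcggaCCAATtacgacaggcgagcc
Dhcr7: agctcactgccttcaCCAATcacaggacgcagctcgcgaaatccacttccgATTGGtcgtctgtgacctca
Fasn: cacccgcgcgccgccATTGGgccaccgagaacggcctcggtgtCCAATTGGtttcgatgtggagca
Mvk holds 5 CCAAT boxes in its promoter, Hmgcs1 holds 4, Msmo1 and Fasn hold 3 each, and Mvd and Dhcr7 hold 2 each at the starts shown. A match of letters is a description and not evidence of binding.

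Transcript length set the members apart within groups, and this touches the comparisons that follow. Of the 31 members with a mean above 1 FPKM, 13 have transcripts over 4000 bases, and all 13 were higher in contralateral replicate 3 than in the mean of contralateral replicates 1 and 2, with a median log2 ratio of 1.01. The same 13 were higher in ipsilateral replicate 3 than in the other ipsilateral replicates, with a median of 0.95. Members under 2000 bases went the other way, and 6 of 7 were lower in replicate 3 on each side, with medians of -0.46 (contralateral) and -0.28 (ipsilateral). In replicate 1 of the 10-day-dark group and replicate 1 of the dark-reared group, 12 of the 13 long members were lower than in the rest of their group, with medians of -0.47 and -0.22, and 6 of the 7 short members were higher. Fatty acid genes are the longer ones, with a median of 5144 bases, against 2504 bases for sterol enzymes. Across all tested genes, the median log2 deviation of those over 4000 bases minus that of those under 1500 bases, called the length index here, was 0.54 and 0.36 in contralateral and ipsilateral replicate 3, and -0.72 to -0.44 in the other 4 libraries of those groups. Replicate 3 of the normally reared, contralateral and ipsilateral groups also stood apart by the ribosomal transcript Rn45s, at 130.3 to 159.5 FPKM, against at least 4279.9 FPKM in every other pulldown.

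**Figure D1:**
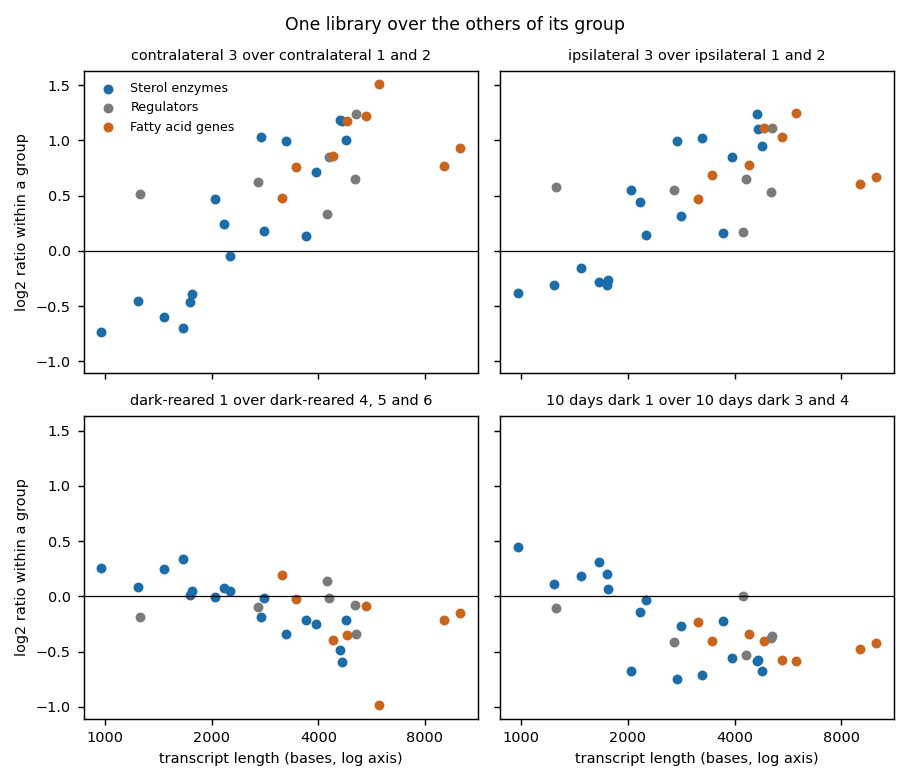
Log2 ratio of 1 pulldown library over the mean of the others of its group (y axis) against transcript length (x axis, log scale) for the 31 members with a mean above 1 FPKM, coloured by role. In the upper panels (contralateral and ipsilateral replicate 3) long transcripts sit above 0 and short ones mostly below it, and in the lower panels (dark-reared and 10-day-dark replicate 1) long transcripts sit mostly below 0.

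The comparison of pulldown with input asked which of the genes are carried more in tagged cells than in the whole cortex. It was tested over all 21 libraries with limma on log2(FPKM + 1), with a term for the group and adjustment over 12070 genes. Most enzymes of sterol synthesis were higher on tagged ribosomes. Of 31 members tested, 25 were higher, where 26.4% of all genes were, and 1 was lower, where 50.7% of all genes were. By median, the log2 fold change was 1.48 over 17 sterol enzymes, 0.40 over 6 regulators and 1.62 over 8 fatty acid genes, against -0.31 over all genes. All 16 pulldowns lay above all 5 inputs for 22 members, or 15 sterol enzymes, 2 regulators and 5 fatty acid genes, where 14.9% of all genes did so. The length index ran from -0.72 to 0.55 over the pulldowns and from 0.02 to 1.12 in the inputs. The part of transcript length in this comparison was not tested.

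Among the enzymes up to squalene, Mvd, the decarboxylase that makes isopentenyl diphosphate, had the largest difference. Its lowest, median and highest level was 50.1, 77.2 and 98.1 FPKM over the 16 pulldowns, against 9.3, 12.6, 8.9, 11.5 and 16.9 FPKM in the 10-day-dark, dark-reared, normally reared, contralateral and ipsilateral inputs. The log2 fold change was 2.57 ± 0.13 (SE, limma adjusted p = 4.99e-13). Hmgcs1, the synthase that makes HMG-CoA, had a lowest, median and highest level of 113.4, 228.5 and 376.4 FPKM over the pulldowns, against 55.9 to 81.4 FPKM in the inputs, and a log2 fold change of 1.67 ± 0.18. Every pulldown was above every input for both genes, and Hmgcs1 spread far more over the pulldowns than Mvd. Acat2, the thiolase that opens the pathway, rose least among the sterol enzymes that passed, by 0.90 ± 0.10. Mvk and Pmvk, the kinases of mevalonate, rose by 1.41 ± 0.13 and 1.11 ± 0.14. Fdps, which makes farnesyl diphosphate, rose by 1.57 ± 0.13, and Fdft1, squalene synthase, by 1.27 ± 0.10. Idi1, the isomerase between Mvd and Fdps, was listed at 0.1 to 1.3 FPKM over the pulldowns and 0.1 to 0.3 FPKM in the inputs, below the filter, and was not tested.

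Of the enzymes after squalene, Msmo1, an oxidase that starts the removal of a pair of methyl groups after Cyp51 has removed another, was the most abundant. It had a lowest, median and highest level of 134.6, 266.8 and 358.0 FPKM over the pulldowns, against 41.4 to 69.4 FPKM in the inputs, and a log2 fold change of 2.26 ± 0.13 (limma adjusted p = 8.1e-12). Cyp51, the lanosterol demethylase that acts before it, rose by 1.98 ± 0.15, Tm7sf2, a sterol reductase, by 1.70 ± 0.12, and Nsdhl, the dehydrogenase that acts after Msmo1, by 1.59 ± 0.08. Dhcr7, the reductase that makes cholesterol itself, rose by 1.56 ± 0.10, and Sc5d, the desaturase before it, by 1.48 ± 0.18. Sqle, the squalene epoxidase often treated as rate-limiting, rose by 1.14 ± 0.18, and Lss, lanosterol synthase, by 1.26 ± 0.21. The pathway was not uniform. Hsd17b7, the ketosteroid reductase of the demethylation step, was at 2.9 to 13.0 FPKM in the pulldowns, against 4.9 to 5.8 FPKM in the inputs, and Ebp, the sterol isomerase, at 8.9 to 13.9 FPKM in the pulldowns, against 8.8 to 16.1 FPKM in the inputs. Both overlapped their inputs, with log2 fold changes of 0.14 ± 0.21 (limma adjusted p = 0.544) and -0.05 ± 0.11 (adjusted p = 0.707).

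Regulators divided by gene. Srebf1, which drives mainly fatty acid genes, had a lowest, median and highest level of 29.2, 62.4 and 90.0 FPKM over the pulldowns, against 8.0 to 14.1 FPKM in the inputs, and rose by 2.44 ± 0.15 (limma adjusted p = 2.01e-11). Srebf2, which drives mainly sterol genes, was at 40.4 to 82.9 FPKM over the pulldowns, against 37.3 to 45.4 FPKM in the inputs, and rose by 0.64 ± 0.13, with some overlap. The difference from input was thus larger for Srebf1 than for Srebf2, though this contrast between genes was not itself tested. The anchors went opposite ways. Insig1, itself induced by SREBP, rose by 1.32 ± 0.12, while Insig2 fell by 0.75 ± 0.10 on the log2 scale, with 6.1 to 12.8 FPKM in the pulldowns, against 13.7 to 18.5 FPKM in the inputs, and no overlap, where 28.9% of all genes lay below without overlap. Scap was at 18.6 to 30.6 FPKM in the pulldowns, against 21.7 to 24.0 FPKM in the inputs, with a log2 fold change of 0.16 ± 0.10 (adjusted p = 0.14). Stard4, a carrier that moves sterol between membranes, was at 2.5 to 10.1 FPKM in the pulldowns, against 4.1 to 5.9 FPKM in the inputs, with 0.16 ± 0.19 (adjusted p = 0.469).

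Desaturases led the fatty acid genes. Scd2, which makes monounsaturated fatty acids, was the most abundant of all 32 members, with a lowest, median and highest level of 602.3, 1639.3 and 2034.4 FPKM over the pulldowns, against 246.6 to 374.7 FPKM in the inputs, and it rose by 2.24 ± 0.20. Fads2 and Fads1, the desaturases of polyunsaturated fatty acids, came next at 424.3 to 778.1 FPKM and 339.3 to 681.7 FPKM over the pulldowns. Their ranges overlapped each other, and both lay above all inputs, whose highest levels were 87.6 FPKM for Fads2 and 95.7 FPKM for Fads1. Fads2 rose by 2.89 ± 0.13 (limma adjusted p = 8.85e-14), Fads1 by 2.76 ± 0.14 and Scd1 by 2.29 ± 0.20. The enzymes that supply and build the chain differed less from input, and Fasn and Acaca have the longest transcripts of the members, 10050 and 9026 bases. Fasn, fatty acid synthase, rose by 1.00 ± 0.15, Acaca, which makes malonyl-CoA, by 0.43 ± 0.14 (adjusted p = 0.0104), and Acly, which makes cytosolic acetyl-CoA, by 0.38 ± 0.15 (adjusted p = 0.0241). Acaca lost its call without the dark-reared input (adjusted p = 0.0514), and Acly without the dark-reared or the normally reared input (adjusted p = 0.0869 and 0.0979). Elovl6, which lengthens palmitate, stood apart from the rest, at 2.5 to 9.5 FPKM in the pulldowns, against 4.8 to 9.8 FPKM in the inputs, with a log2 fold change of -0.55 ± 0.25 (adjusted p = 0.0512). Elovl6 passed as lower in 9 alternatives, among them array weights (adjusted p = 0.01), group means against inputs (adjusted p = 0.00689) and the fit without contralateral replicate 3 (adjusted p = 0.0152). How reads shared by the paralogs Scd1 and Scd2 were counted is not given in the sources used here.

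Scaling moved the level of all genes in this comparison. After quantile normalization the median of all genes was 0.01 and 4646 genes were higher and 4638 lower, against 3185 higher and 6115 lower as deposited, and after median-ratio scaling 4449 were higher and 4701 lower. Under both scalings 28 members were higher and 1 lower, with Hsd17b7, Scap and Stard4 added among the higher, and Ebp had a positive log2 fold change of 0.27 under each without passing.

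**Figure D2:**
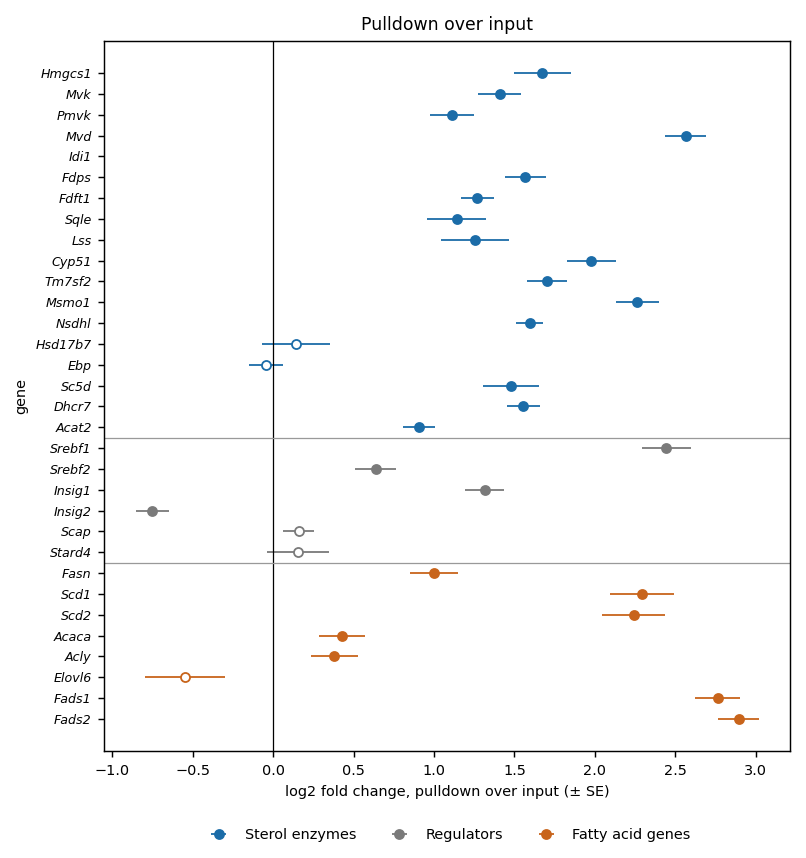
Log2 fold change of pulldown over input on the log2(FPKM + 1) scale (x axis, bars are SE from limma) for each member (y axis), coloured by role, with filled points for adjusted p under 0.05 and open points for the rest. Desaturases, Mvd, Srebf1 and Msmo1 lie farthest to the right, Insig2 is the filled point left of 0, and Idi1 was not tested.

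Other genes of the same pathways were listed beside the members, 25 in the table, and 16 were higher in the pulldown, where 26.4% of all genes were, and 7 lower, where 50.7% of all genes were. Elovl5, an elongase of polyunsaturated fatty acids, was at 2.35 ± 0.18, Fabp5, a fatty acid carrier, at 2.22 ± 0.11, Npc2, which hands cholesterol out of lysosomes, at 2.12 ± 0.11, and Acss2, which makes acetyl-CoA from acetate, at 2.09 ± 0.09. Among those lower were both SREBP proteases, Mbtps1 at -0.74 ± 0.13 and Mbtps2 at -1.16 ± 0.17. Cyp46a1, the hydroxylase through which neurons clear cholesterol, was at -0.88 ± 0.15, and Mylip, which marks lipoprotein receptors for degradation, at -1.38 ± 0.11.

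The comparison of 10-day-dark with dark-reared mice held the only member called between pulldown groups, Dhcr7. It had 29.6, 36.8 and 34.8 FPKM in 10-day-dark libraries, against 59.4, 58.3, 56.2 and 65.7 FPKM in dark-reared libraries. Every 10-day-dark library was far below every dark-reared one. Dhcr7 fell by 0.81 ± 0.14 on the log2 scale (limma adjusted p = 0.00723), in a comparison where 287 of 11562 genes were called, 276 higher and 11 lower, so that 0.0951% of genes passed as lower. The call did not hold without 10-day-dark replicate 1 (log2 fold change -0.72, adjusted p = 0.0549) or with the neuron marker level as a covariate (-0.58, adjusted p = 0.328). Without the 3 libraries low in Rn45s, which enter here only through the shared estimate of spread, 8 sterol enzymes passed (Hmgcs1, Mvd, Fdps, Cyp51, Tm7sf2, Msmo1, Nsdhl and Dhcr7), where 0.444% of all genes were lower. With only the 2 groups in the fit 12 members passed, where 1.76% of all genes were lower.

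The other sterol enzymes lay on the same side without passing. All 17 had a negative log2 fold change, with a median of -0.58, and 11 had an unadjusted p under 0.05, where 2.12% of all genes had one as lower. Over all members 29 of 31 were negative, where 37% of all genes were, and the 10-day-dark libraries lay wholly below the dark-reared ones for 18 members, or 13 sterol enzymes, 3 regulators and 2 fatty acid genes, where 5.78% of all genes did. Msmo1 had 134.6, 221.9 and 209.9 FPKM in 10-day-dark libraries, against 313.9, 324.5, 275.7 and 348.3 FPKM in dark-reared libraries, with no overlap and a log2 fold change of -0.77 ± 0.20 (adjusted p = 0.0604). Tm7sf2 had 27.9, 24.4 and 24.4 FPKM in 10-day-dark libraries, against 50.9, 46.2, 36.8 and 45.6 FPKM in dark-reared libraries, with -0.78 ± 0.20 (adjusted p = 0.0529). Neither gene's groups overlapped, and 10-day-dark replicate 1 was the lowest library for Msmo1 but not for Tm7sf2. Nsdhl had 30.3, 34.1 and 32.8 FPKM in 10-day-dark libraries, against 48.5, 48.1, 45.6 and 44.0 FPKM in dark-reared libraries, with -0.51 ± 0.13 (adjusted p = 0.052). Mvd had 55.1, 55.4 and 50.1 FPKM in 10-day-dark libraries, against 85.9, 77.3, 80.0 and 92.3 FPKM in dark-reared libraries, with -0.64 ± 0.18 (adjusted p = 0.0954). The smallest differences among sterol enzymes were those of Ebp, at -0.28 ± 0.15, and Acat2, at -0.29 ± 0.14.

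Among regulators and fatty acid genes 0 passed in that comparison. Stard4 had the lowest log2 fold change of the regulators, -0.55 ± 0.32 (adjusted p = 0.476), with 3.7, 5.6 and 4.5 FPKM in 10-day-dark libraries, against 5.8, 7.8, 6.9 and 8.1 FPKM in dark-reared libraries, and no overlap. Insig1 had 37.0, 52.2 and 47.3 FPKM in 10-day-dark libraries, against 57.0, 63.8, 53.4 and 67.0 FPKM in dark-reared libraries, without overlap, and a log2 fold change of -0.41 ± 0.19 (adjusted p = 0.356). Srebf2 was at -0.28 ± 0.20 and also did not overlap. Srebf1 had 57.7, 90.0 and 77.7 FPKM in 10-day-dark libraries, against 71.6, 75.0, 75.0 and 67.5 FPKM in dark-reared libraries, with the dark-reared libraries inside the range of the 10-day-dark ones and a log2 fold change of 0.03 ± 0.25. Insig2 was at 0.03 ± 0.17 and Scap at -0.05 ± 0.15. The 8 fatty acid genes were all negative, with a median of -0.26, and none had an unadjusted p under 0.05. Quantile normalization moved the median of all genes to -0.06, against 0.08 as deposited, and Scd2 was then positive at 0.06. With the neuron covariate Scd2, Fads2 and Scap were positive, at 0.09, 0.05 and 0.18. After median-ratio scaling 5 of the 8 fatty acid genes lay below without overlap, where 12.9% of all genes did. As deposited 2 did, where 5.78% of all genes did. Fads2 had the smallest p of them, with 424.3, 503.1 and 495.4 FPKM in 10-day-dark libraries, against 696.7, 667.5, 605.4 and 558.7 FPKM in dark-reared libraries, and -0.41 ± 0.20 (adjusted p = 0.377). Of the 25 other pathway genes 15 were negative and 0 passed, 3 with an unadjusted p under 0.05 as lower. Those were Aacs, which makes acetoacetyl-CoA in the cytosol, at -0.57 ± 0.16 (adjusted p = 0.0889), Fabp5 at -0.50 ± 0.15 (adjusted p = 0.105) and Acss2 at -0.40 ± 0.12 (adjusted p = 0.12).

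Against normally reared mice, the 10-day-dark libraries gave 0 members called by limma among 10 genes called of 11562 (0.0865%). The sterol enzymes again all had negative values, 17 of 17, and their median difference was -0.50 on the log2 scale. Among them 9 had an unadjusted p under 0.05, where 0.813% of all genes had one as lower. Dhcr7 had 29.6, 36.8 and 34.8 FPKM in 10-day-dark libraries, against 54.9, 55.8 and 51.6 FPKM in normally reared libraries, and a log2 fold change of -0.67 ± 0.15 (adjusted p = 0.221). Hmgcs1 had 113.4, 203.3 and 171.5 FPKM in 10-day-dark libraries, against 257.3, 269.5 and 287.9 FPKM in normally reared libraries, with -0.77 ± 0.31 (adjusted p = 1). Neither gene's groups overlapped, and for Hmgcs1 the 10-day-dark replicate 1 lay well below the other 2. Cyp51 had 35.9, 56.5 and 50.6 FPKM in 10-day-dark libraries, against 74.9, 94.1 and 76.9 FPKM in normally reared libraries, with -0.79 ± 0.26 (adjusted p = 0.712). Msmo1 was at -0.77 ± 0.21 (adjusted p = 0.475) and Hsd17b7 at -0.79 ± 0.37. Without the 3 libraries low in Rn45s, of which 1 is normally reared, Mvd passed at -0.86 (limma adjusted p = 0.0189). Of the 25 other pathway genes 20 were negative and 0 passed.

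Of all 31 members 30 were negative against normal rearing, where 47.3% of all genes were, and 19 did not overlap, all below, where 4.6% of all genes lay below. These were 13 sterol enzymes, 2 regulators (Insig1 and Stard4) and 4 fatty acid genes (Scd1, Acly, Elovl6 and Fads1). Mvk, Pmvk, Ebp and Acat2 were the tested sterol enzymes whose groups overlapped. The fatty acid genes had a median of -0.30, with Elovl6 lowest at -0.75 ± 0.42 and Scd2 nearest to 0 at -0.16 ± 0.35. Srebf1 alone was positive, with 57.7, 90.0 and 77.7 FPKM in 10-day-dark libraries, against 63.2, 51.8 and 62.3 FPKM in normally reared libraries, overlapping groups and a log2 fold change of 0.32 ± 0.26. Summed over the 18 sterol enzymes, the level was 733.6, 969.3 and 900.0 FPKM in 10-day-dark libraries, against 1229.5 to 1415.3 FPKM in dark-reared and 1214.8 to 1421.1 FPKM in normally reared libraries. The same 10-day-dark libraries served against dark rearing and against normal rearing, so the 2 results are not independent. In the input the same sum was 307.9 FPKM for 10 days of darkness, against 404.4 FPKM for dark rearing and 308.2 FPKM for normal rearing. The median input difference between 10 days of darkness and normal rearing over 17 sterol enzymes was -0.05, with 1 library each and no test.

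**Figure D3:**
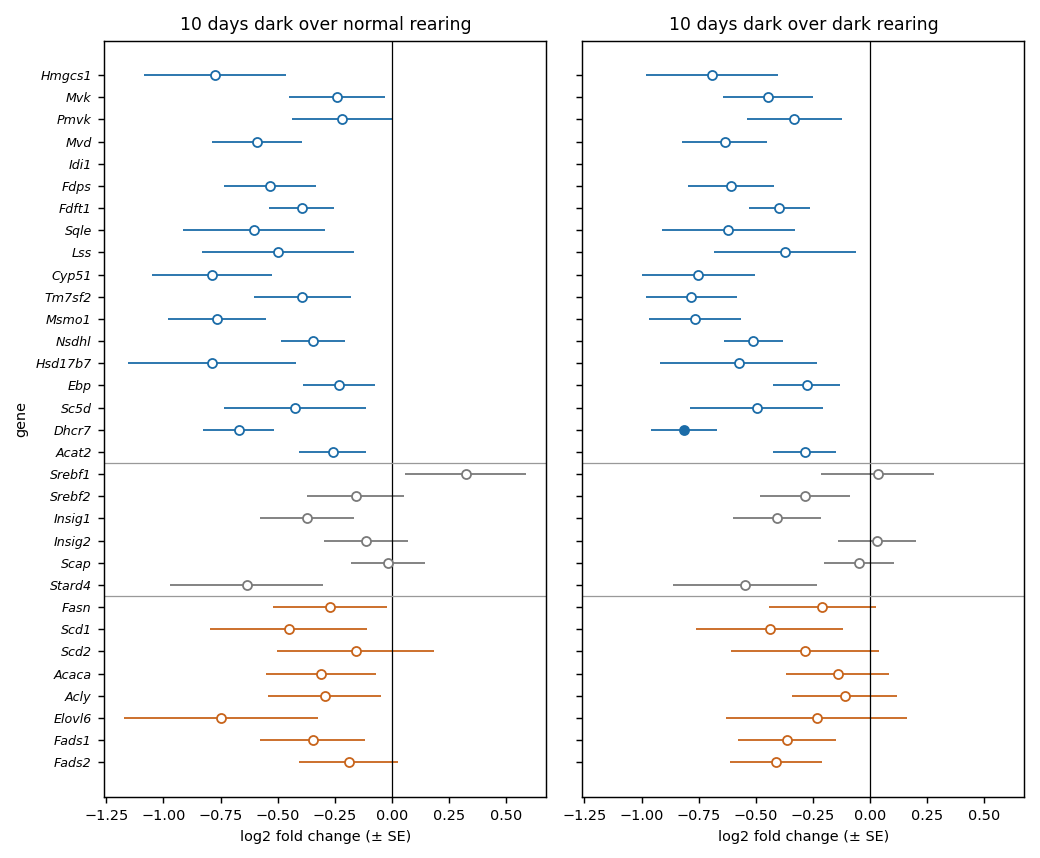
Log2 fold change on the log2(FPKM + 1) scale (x axes, bars are SE from limma) of the 10-day-dark group over the normally reared group (left) and over the dark-reared group (right) for each member, in blue for sterol enzymes, grey for regulators and orange for fatty acid genes. Filled points have an adjusted p under 0.05, which holds for Dhcr7 in the right panel, and all sterol enzymes tested lie left of 0 in both panels.

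Markers of other cells moved with these groups. The summed level of 12 microglia markers was 90.6 to 154.2 FPKM in 10-day-dark libraries, against 25.1 to 37.8 FPKM in dark-reared and 22.9 to 38.4 FPKM in normally reared libraries. Neuron markers were at 726 to 1174 FPKM in 10-day-dark libraries, against 255 to 413 FPKM in dark-reared and 425 to 1191 FPKM in normally reared libraries. Astrocyte markers were at 13466 to 16079 FPKM in 10-day-dark libraries, against 17238 to 18661 FPKM in dark-reared and 15596 to 17349 FPKM in normally reared libraries. Oligodendrocyte markers overlapped, at 2119 to 2590.4 FPKM in 10-day-dark libraries, against 1379.8 to 2587 FPKM in dark-reared and 1536 to 2342 FPKM in normally reared libraries. With the oligodendrocyte level as a covariate, 3 members were lower in 10-day-dark than in dark-reared mice (Cyp51, Nsdhl and Dhcr7), where 0.251% of all genes were, and with the neuron level 0 were, where 0.00865% of all genes were. The part of microglia and astrocyte levels in these results was not tested. The length index was -0.22, 0.30 and 0.34 in the 10-day-dark libraries, against -0.25 to 0.24 in dark-reared and 0.08 to 0.55 in normally reared libraries. With it as a covariate, 20 members were lower in 10-day-dark than in dark-reared mice, where 2.69% of all genes were, among them 13 sterol enzymes, 3 regulators and 4 fatty acid genes, and 2 members, Hmgcs1 and Dhcr7, were lower than in normally reared mice, where 0.0951% of genes were. Dhcr7 then had -0.85 ± 0.11 (adjusted p = 0.000914) against dark rearing and -0.64 ± 0.12 (adjusted p = 0.0294) against normal rearing, and Hmgcs1 had -0.84 ± 0.11 and -0.65 ± 0.12. This covariate was chosen after the data had been seen.

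**Figure D4:**
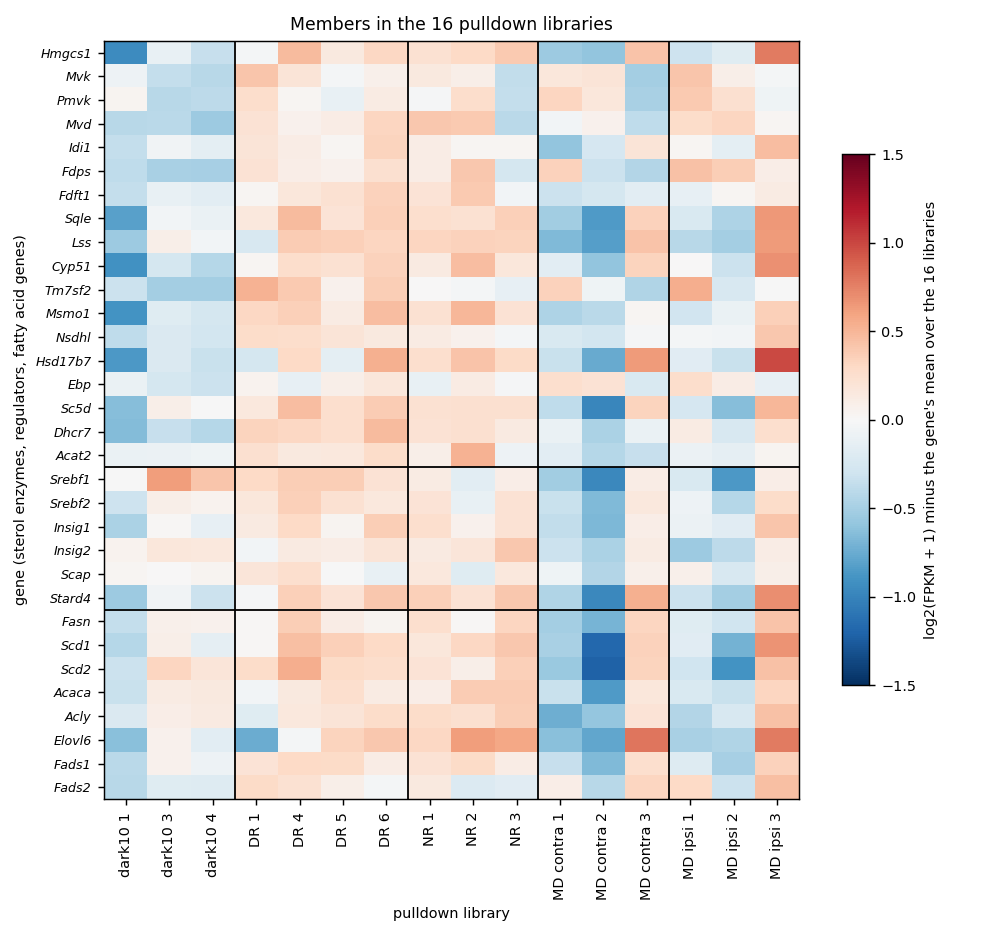
Log2(FPKM + 1) of each member minus its mean over the 16 pulldowns (colour) by library (x axis, dark10 is 10 days of darkness, DR dark rearing, NR normal rearing, MD contra and MD ipsi the sides of monocular deprivation), with genes by role (y axis). Most sterol enzymes are blue in the 10-day-dark columns, and many fatty acid genes are blue in contralateral and ipsilateral replicates 1 and 2 and red in replicate 3.

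After monocular deprivation, nearly all the genes had somewhat lower levels contralaterally than ipsilaterally, though limma called 0 of 11562 genes (0%) and 0 members. At an unadjusted p under 0.05 there were 70 genes lower and 14 higher, or 0.605% of genes lower, and 1 member, Fdps, among them. Of 31 members 30 had a negative log2 fold change, where 69.7% of all genes did. Its median was -0.26 over sterol enzymes, -0.17 over regulators and -0.24 over fatty acid genes, against -0.06 over all genes. After quantile normalization or median-ratio scaling Ebp was positive, at 0.05 and 0.07, and 29 members were negative. The sign count rested on single libraries in this unpaired fit, with 18 of 31 negative without ipsilateral replicate 3 and 21 without contralateral replicate 2. Each of these fits leaves the library of the same number on the other side unmatched. Without ipsilateral replicate 3, Hmgcs1 was at 0.01 and Scd1 at 0.00. Libraries of the same number deviated together and were read as pairs, though this cannot show that a number marks 1 animal. Of 31 members, 25 were lower on the contralateral side in every pair, or 14 of 17 sterol enzymes, 4 of 6 regulators and 7 of 8 fatty acid genes, where 20.8% of all genes were. The members that were not lower in every pair were Mvk, Tm7sf2, Ebp, Srebf1, Insig2 and Elovl6. The count was 21 after quantile normalization, where 13.9% of all genes were lower in every pair, and 22 after median-ratio scaling, where 13.4% were. Over pairs 1 and 2 alone, without the replicates low in Rn45s, 27 members were lower in both, where 42.7% of all genes were. The count was 25 over pairs 2 and 3, where 31% of all genes were, and 28 over pairs 1 and 3, where 29.1% were. Of the 25 other pathway genes 19 were negative and 0 passed.

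Hmgcs1 had 149.3, 145.0 and 294.4 FPKM in contralateral libraries 1 to 3, against 176.8, 192.5 and 376.4 FPKM in ipsilateral libraries 1 to 3. Scd1 had 126.8, 78.3 and 225.9 FPKM in contralateral libraries, against 157.5, 108.6 and 284.1 FPKM in ipsilateral libraries. For both genes the pairs differ from one another by more than the sides do, with pair 3 the highest. Insig1 had 39.7, 32.1 and 55.7 FPKM in contralateral libraries, against 48.4, 45.7 and 69.2 FPKM in ipsilateral libraries. Fdft1 had 40.5, 42.4 and 45.6 FPKM in contralateral libraries, against 46.9, 52.2 and 55.5 FPKM in ipsilateral libraries. The 3 contralateral libraries were the lowest of the 6 for that gene, and the same held for Acat2, with 22.1, 18.1 and 19.3 FPKM in contralateral libraries, against 23.3, 22.4 and 25.4 FPKM in ipsilateral libraries. Fdft1 and Acat2 were the members whose sides did not overlap at all, where 1.37% of all genes lay below without overlap.

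With the pair as a block in limma, 0 members passed and 1 gene of 11370 did. Unadjusted p was under 0.05 for 21 of 31 members, all lower, where 5.2% of all genes were lower at that level. Scd1 had a log2 fold change of -0.37 ± 0.07 (adjusted p = 0.324), Hmgcs1 -0.33 ± 0.07 (adjusted p = 0.359), Insig1 -0.36 ± 0.08, Mvd -0.33 ± 0.07 and Sqle -0.33 ± 0.07 (adjusted p = 0.515 for the last 3). Without the block the SE of Hmgcs1 was 0.31 and that of Scd1 0.34. With the block and the length index together, 24 of 31 members had an unadjusted p under 0.05 as lower, where 6.91% of all genes did, and 0 passed. In the inputs, 1 library a side and untested, 15 of 17 sterol enzymes were lower contralaterally, with a median of -0.28, against -0.03 over all genes, and 6 of 8 fatty acid genes, with a median of -0.08. Oligodendrocyte markers summed to 1998 to 3587 FPKM in contralateral libraries, against 2109.8 to 3462 FPKM in ipsilateral libraries, and microglia markers to 24.9 to 28.6 FPKM in contralateral libraries, against 26.3 to 29.9 FPKM in ipsilateral libraries. Oligodendrocyte precursor markers did move with the members, at 282.6, 257.0 and 265.7 FPKM in contralateral libraries 1 to 3, against 329.6, 318.6 and 304.1 FPKM in ipsilateral libraries 1 to 3, without overlap. Astrocyte markers were also lower in every pair, at 13361, 13111 and 18019 FPKM in contralateral libraries, against 14559, 13250.3 and 18688 FPKM in ipsilateral libraries. The part of these markers in the result was not tested.

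**Figure D5:**
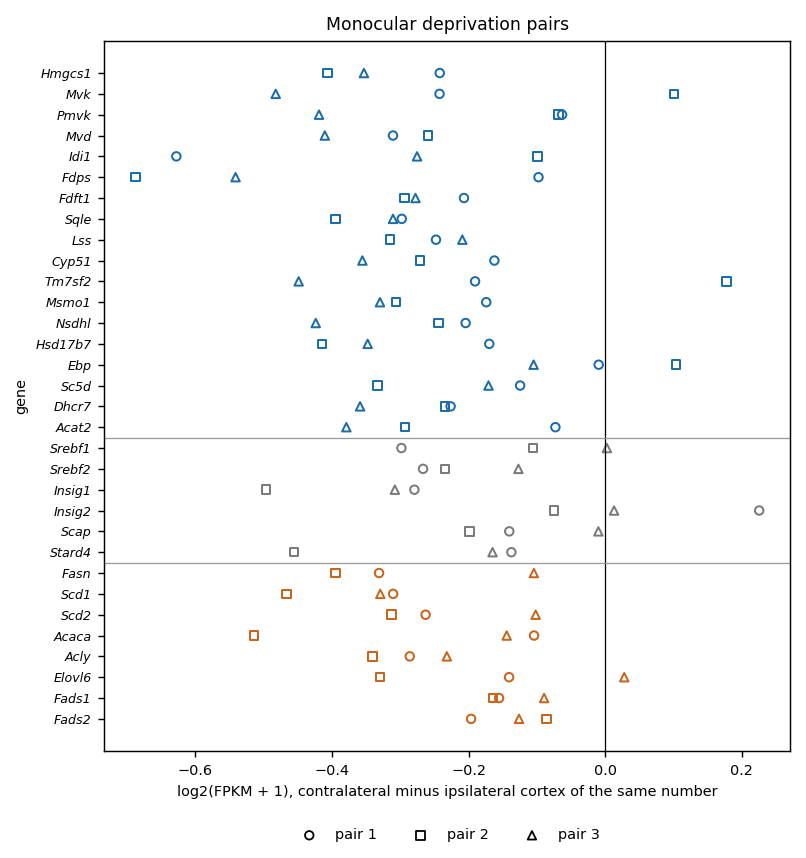
Difference in log2(FPKM + 1) between contralateral and ipsilateral cortex of the same replicate number (x axis) for each member (y axis), with 1 symbol for each of the 3 pairs, in blue for sterol enzymes, grey for regulators and orange for fatty acid genes. Most symbols lie left of 0, where the contralateral side is lower.

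No member was called between dark-reared and normally reared mice of the same age. Limma called 1 gene of 11562, which was lower (0.00865%). At an unadjusted p under 0.05 there were 82 genes higher (0.709%) and 558 lower (4.83%), with 0 members among them. Members were divided in sign, 19 positive and 12 negative, where 34.7% of all genes were positive, with medians of 0.05 over sterol enzymes, 0.03 over regulators and -0.04 over fatty acid genes, against -0.08 over all genes. Quantile normalization moved the median of all genes to 0.03 and left the count at 19, and median-ratio scaling moved it to 0.00 and made 24 members positive. The count was 25 with the length index as a covariate, where 47.4% of all genes were positive, 14 with array weights or without normally reared replicate 3, and 8 with the neuron covariate, so the members' sign depended on the setting. Dark-reared libraries lay wholly above normally reared ones for 4 members, Tm7sf2, Nsdhl, Dhcr7 and Srebf1, where 2.71% of all genes did, and below for 0, where 9.06% did. After quantile normalization 1 member lay wholly above, where 6.65% of all genes did, and after median-ratio scaling 3 did, where 5.5% of all genes did. Tm7sf2 had 50.9, 46.2, 36.8 and 45.6 FPKM in dark-reared libraries, against 35.2, 34.2 and 32.1 FPKM in normally reared libraries, with a log2 fold change of 0.39 ± 0.20 (adjusted p = 0.866). Srebf1 had 71.6, 75.0, 75.0 and 67.5 FPKM in dark-reared libraries, against 63.2, 51.8 and 62.3 FPKM in normally reared libraries, with 0.29 ± 0.25. Dhcr7 had 59.4, 58.3, 56.2 and 65.7 FPKM in dark-reared libraries, against 54.9, 55.8 and 51.6 FPKM in normally reared libraries, with 0.14 ± 0.14. The gaps between the groups were narrow for all 4 members. For Nsdhl the lowest dark-reared level was 44.0 FPKM and the highest normally reared level 43.4 FPKM. The most negative member, Elovl6, had 2.6, 4.9, 6.6 and 7.0 FPKM in dark-reared libraries, against 6.5, 8.3 and 8.0 FPKM in normally reared libraries, with -0.51 ± 0.40. Dark-reared replicates 1 and 4, at 2.6 and 4.9 FPKM, lay below all normally reared libraries, and the part of transcript length was not tested. The 25 other pathway genes gave 12 positive and 13 negative values and 0 calls.

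In the inputs of the same groups the sterol enzymes lay apart. Of 17 sterol enzymes 14 were higher in the dark-reared input than in the normally reared one, with a median log2 difference of 0.46, against 0.06 over all genes, with 1 library each and no test. The length index of these inputs was 0.02 for dark rearing and 1.12 for normal rearing, a wide gap, and astrocyte markers summed to 2445 FPKM in the dark-reared input, against 1674 FPKM in the normally reared one. Microglia markers summed to 612.7 FPKM in the dark-reared input, against 301.6 FPKM in the normally reared one. The part of length and of these markers in the difference was not tested. The difference between the effect of dark rearing and that of monocular deprivation was tested in the same fit, and 0 genes (0%) passed, with 45 higher and 71 lower at an unadjusted p under 0.05. It was positive for 29 of 31 members, where 47.5% of all genes were, with a median of 0.28 over sterol enzymes and 0.18 over fatty acid genes, and 1 member had an unadjusted p under 0.05, where 0.389% of all genes were higher at that level. The count of positive members was 18 without ipsilateral replicate 3 and 20 without contralateral replicate 2. The member under 0.05 was Nsdhl, whose effect was 0.17 ± 0.13 with dark rearing and -0.29 ± 0.14 with monocular deprivation. With the monocular pairs as a block, Nsdhl and Dhcr7 had the smallest unadjusted p of the members (limma, 0.00238 and 0.00454). Tm7sf2, Srebf1, Insig1, Sqle, Scd2, Fdps, Srebf2, Fads2 and Scd1 were also under 0.05 before adjustment, all positive. Scd1, the last of them, ranked 661 among all genes tested. Adjusted p was 0.672 for each, and 0 members passed.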

How the data were processed

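Poly(A) RNA from ribosome pulldowns and whole-cortex inputs was sequenced, and the authors deposited 1 table of FPKM values per gene and library, rounded to 0.1, per the file headers. The submitters' processing notes name the mm10 genome and the tools STAR 2.5.1b, HOMER 4.10, DESeq2, FastQC 0.11.2, CASAVA 1.8.2 and R 3.4.3, without saying which step each served. Gene names stored as dates, 26 in all, were restored. Of 22 samples in the labels, 21 were used. Dark-reared replicate 2 is not analysed here, and 1 column that matched no sample's label was not used. Read counts were not used, so depth was estimated from the smallest steps between FPKM values, which gives precision only roughly.

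Pulldown groups were compared with limma 3.58.1 in R 4.3.3 on log2(FPKM + 1) over all 16 pulldowns, which share 1 estimate of spread, for genes with a mean above 1 FPKM, with a trended and robust variance prior and Benjamini-Hochberg adjustment over all tested genes at 0.05. A fold change on this scale understates the change of low genes. Pulldown and input were compared over 21 libraries with a term for the group. Fits were tested on simulated data. Tables, promoter searches and figures used Python 3.11.15, pandas 2.3.3, numpy 2.4.6 and matplotlib 3.10.9. Promoter sequences are from RefSeq, and Fdps, Fdft1, Sqle, Fads1, Scd1, Scd2 and Stard4 had none in the table used. The members, the list of other pathway genes and the marker lists were chosen with earlier results of these data known. All members could be named in every comparison, and other pathway genes where they passed the test or had the smallest p of their list. Which members are shown with every value was chosen after seeing them.

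Contralateral and ipsilateral libraries of 1 number were taken as pairs, since the correlation of their deviations from the group means over 11562 genes was 0.802, 0.79 and 0.903 for numbers 1, 2 and 3. Such a correlation cannot show that a number marks 1 animal. Number 1 of the dark-reared and normally reared groups, which are different mice, also gave 0.429. Alternatives were other pseudocounts, filters and scalings, array weights, marker covariates, the compared groups alone, a replicate block and leaving out each library. The length index, the fit without libraries low in Rn45s and the block with the length index were added after seeing the data.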

Additional observations from a re-analysis of the deposited data

Results flagged for a closer look

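In the dark-reared group, the only one with 4 pulldowns, 35 values were examined for a library far from the other 3, and 3 stood apart, where chance gives about 1 in 20. Lss was lowest in replicate 1, at 11.9 FPKM, against 18, 18.5 and 18.8 FPKM in the others, and the gap was 0.884 of the group's range, more than Dixon's 95% critical value for 4 libraries. Scd2 was highest in replicate 4, at 2034.4 FPKM, against 1668.6, 1688.2 and 1703.9 FPKM, with a gap of 0.903 of the range. The summed level of the 6 regulators was also highest in replicate 4, at 270.5 FPKM, against 245.1, 246.5 and 249.1 FPKM, with a gap of 0.843 of the range.

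Dhcr7 differed in its distance from normal rearing between the 10-day-dark and dark-reared groups, which differ in age (day 120 and day 45) as well as in darkness. Its log2 fold change over normal rearing was -0.67 ± 0.15 after 10 days of darkness and 0.14 ± 0.14 after dark rearing, and the difference between these, -0.8134, is the contrast of the 10-day-dark and dark-reared groups (limma adjusted p = 0.00723, over 3 and 4 libraries). All 3 10-day-dark libraries lay below all 4 dark-reared ones. The call did not hold without 10-day-dark replicate 1 (limma adjusted p = 0.0549) or with the neuron covariate (adjusted p = 0.328). Age and darkness cannot be told apart here.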

How the results depend on the processing

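Members called by limma were 0 between dark-reared and normally reared, 0 between contralateral and ipsilateral and 0 in the contrast of those 2 effects under every alternative run, and 25 to 27 between pulldown and input with 1 library left out. No call changed direction. Between 10-day-dark and dark-reared, 1 member was called as reported, 0 to 1 with a library left out, 2 with quantile normalization and 4 with median-ratio scaling. These 2 scalings also moved all genes. By the other rule, lying below without overlap, the share of all genes was 14.6% and 12.9% under them, against 5.78% as deposited. Pseudocount 5 gave 2, where 11 of 11562 genes were lower. Array weights gave 21, where 9% of all genes were lower, and a replicate block 23, where 6.23% were. The oligodendrocyte covariate gave 3 (0.251% of all genes lower), the neuron covariate 0 (0.00865%) and the length index 20 (2.69%). With only the compared groups there were 12 (1.76%), and 8 without the libraries low in Rn45s (0.444%). Between 10-day-dark and normally reared, 7 were called with array weights (0.631% of all genes lower) and 1 with the oligodendrocyte covariate (0.0346%). There were 2 with the length index (0.0951%) and 1 without the low Rn45s libraries (0.0261%). Over all genes, the 10-day-dark and dark-reared contrast gave 287 as reported, 493 with no filter, 151 with a mean above 5 FPKM, 4147 with array weights, 9 with the neuron covariate, 1017 with the length index, 1748 with only the compared groups, 3463 with the block, 578 without the low Rn45s libraries and 69 to 212 with a library left out. That with normally reared gave 10 as reported, 20 with pseudocount 5, 73 with no filter, 0 above 5 FPKM, 258 with array weights, 18 and 17 with the oligodendrocyte and neuron covariates, 49 with the length index, 1 with only the compared groups, 0 with the block and 4 to 11 with a library left out. Dark-reared against normally reared gave 1 as reported, 2 each with pseudocount 5, above 5 FPKM, quantile, median-ratio and the oligodendrocyte covariate, 27 with array weights, 0 with the neuron covariate and without low Rn45s, and 0 to 3 with a library left out. Pulldown against input gave 6070 above 5 FPKM, where fewer genes were tested, against 9300. Contralateral against ipsilateral gave 0 as reported, 1 with the replicate block, 1 without low Rn45s and 0 to 1 with a library left out, and the contrast of effects gave 1 without low Rn45s and 0 to 1 with a library left out. Other causes of these shifts were not tested. The numbers shared by 10-day-dark and dark-reared (1 and 4, r 0.480 and 0.570) or by 10-day-dark and normally reared (1 and 3, r 0.218 and -0.08) do not establish pairs, and dark-reared and normally reared share number 1 alone, so no paired fit was possible there. With 3 or 4 libraries a group, 1 input a group and depth known only as an estimate, precision is limited. Elovl6, at 2.5 to 9.5 FPKM in the pulldowns, had the largest SE of the tested members in each comparison between pulldown groups as reported.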
